A study of Rattus norvegicus with 6 samples.

Results

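The genes described here are 10 members of the interleukin-1 family of cytokines, receptors and antagonists, measured in rat kidney: the interleukin-33 receptor gene Il1rl1, and Il33, Il1rap, Il1r1, Il1r2, Il1rn, Il1a, Il1b, Il18 and Il18bp. They were taken as all non-control probes whose RefSeq accession, without its version, belongs to one of these symbols. This gave 12 probes for 9 of the 10 genes, and Il1r1 had no probe that could be named in this way. A filter on dim probes, described with the processing, left 7 genes among 17892 tested features. The family was picked with its difference between the groups already known, so the differences of its members, their adjusted p-values included, are a description and not independent evidence.

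The study compared kidneys labelled diabetic (3 samples) with kidneys labelled Bailing Capsule-treated (3 samples). Bailing Capsule is a fermented Cordyceps preparation, and rats of both groups were 21 weeks old. The labels do not say whether the treated rats were diabetic too. Strain, sex, dose, length of treatment and the way diabetes was induced are not given, and no untreated healthy group is analysed here. Each sample gave 1 Agilent single-colour array with Cy3-labelled total RNA. The labels do not state whether the 3 samples of a group were separate animals. Where kidneys are counted below, 1 kidney means 1 sample. The p-values refer to the spread among samples, which may be technical.

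Feature Extraction's test against background was passed by 64.55% to 73.46% of an array's probes, and pairs of arrays correlated at 0.966 to 0.992. All 9 kidney epithelial markers on the array, among them the tubular genes Umod, Lrp2 and Aqp2 and the podocyte gene Nphs1, were well above background in every kidney, with differences from -0.48 to 0.49 on the log2 scale. Scan time and array position place the arrays on 2 slides: the 3 Bailing Capsule arrays and diabetic replicate 1 on slide 1, diabetic replicates 2 and 3 on slide 2. Slide thus overlaps with group. A fit that takes slide as a block draws its group difference from slide 1, where diabetic replicate 1 is the only diabetic array. Its values are given for the members and wherever they turn the sign of a list's median. The median difference of the kidney epithelial markers was -0.09, or 0.16 with slide as a block.

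Interleukin-33 is a nuclear cytokine of endothelial, stromal and epithelial cells that is released on damage. It binds ST2, the product of Il1rl1, which pairs with the accessory protein encoded by Il1rap and signals through MyD88 and the IRAK kinases; interleukin-1 alpha and beta use the same accessory chain with the receptor encoded by Il1r1. The family is checked by decoys and antagonists: a soluble form of ST2, the decoy receptor Il1r2, the receptor antagonist Il1rn and the interleukin-18 binding protein Il18bp. In kidney these cytokines are known for their part in tubular damage, inflammation and fibrosis. ST2 marks mast cells, group 2 innate lymphoid cells and some regulatory T cells, and the gene was first met as a transcript induced by Fos, hence its older name Fit-1.

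The region in front of the start site is shown for Il1rl1, the member whose call is described first, and for Il1b, the member with the next largest difference among those tested. RefSeq windows of 300 bases, from 250 bases before a gene's start to 50 after it, were found for 9 of the 10 genes in build GRCr8, with 11 starts in all. Sequences run 5′ to 3′ along the gene, and capitals mark TATAA on either strand.
Il1rl1, chr9:50203388-50203687, + strand: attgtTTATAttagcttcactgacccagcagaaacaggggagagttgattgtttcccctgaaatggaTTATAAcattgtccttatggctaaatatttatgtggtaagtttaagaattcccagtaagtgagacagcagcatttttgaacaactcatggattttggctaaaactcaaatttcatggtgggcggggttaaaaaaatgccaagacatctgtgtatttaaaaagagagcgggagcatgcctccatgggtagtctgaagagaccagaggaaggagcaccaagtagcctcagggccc
Il1b, chr3:137036532-137036831, - strand: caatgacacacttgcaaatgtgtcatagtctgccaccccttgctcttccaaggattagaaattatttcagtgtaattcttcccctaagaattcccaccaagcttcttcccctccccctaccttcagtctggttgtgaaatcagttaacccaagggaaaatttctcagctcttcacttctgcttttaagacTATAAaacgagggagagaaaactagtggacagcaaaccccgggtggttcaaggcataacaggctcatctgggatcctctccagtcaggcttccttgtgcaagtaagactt
In Il1b the letters TATAA began 60 bases before the start, and in Il1a their nearest match began 32 bases before it. In Il33 the window chr1:237134696-237134995 had its nearest match 29 bases before the start. The Il33 window chr1:237115323-237115622 had no match. In Il1rl1 TATAA began 182 bases before the start, overlapping a match on the opposite strand that began at 183. A further match on the opposite strand began at 245. TATAA on either strand was present in 6 of the 11 member windows and in 26.2% of the 33469 rat windows. The AP-1 letters TGANTCA, the form bound by Fos and Jun proteins, were in neither the Il1rl1 nor the Il1b window. They were in 2 of the 11 member windows, those of Il1a and Il18, and in 7.33% of all windows. The NF-kB pattern, GGG and CC with 5 bases of any kind between them, was likewise absent from the Il1rl1 and Il1b windows. It was in 6 of the 11 member windows and in 47.3% of all windows. A match or its absence describes these letters only.

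Il1rl1 was lower in kidneys of rats given Bailing Capsule. On the probe for transcript NM_013037, the log2 signal relative to the array's 75th percentile was -2.30, -2.67 and -2.86 in diabetic kidneys and -4.66, -5.71 and -5.02 in Bailing Capsule kidneys. The highest Bailing Capsule kidney thus lay below the lowest diabetic one. The group means were -2.61 ± 0.28 and -5.13 ± 0.53 (SD, n = 3 each), a difference of -2.52 (SE 0.32, 95% interval -3.22 to -1.81), or 5.73-fold. Il1rl1 was the only 1 of the 7 tested members called at an adjusted p under 0.05 (limma, adjusted p = 0.0105), where 0.319% of all features were called. It passed the filter through the diabetic arrays alone, so the call depends on a filter that its high group decides. In whole kidney, fewer cells of a type and less RNA per cell cannot be told apart.

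The unscaled signals show how near the low values of Il1rl1 came to background. They were 55.4 ± 5.70, 34.9 ± 3.76 and 53.2 ± 6.04 intensity units in diabetic kidneys (signal and the error that Feature Extraction gives it, 1 spot per array). In Bailing Capsule kidneys they were 8.84 ± 1.94, 7.16 ± 1.67 and 7.28 ± 1.36. The diabetic signals were all well above background, as were those of Bailing Capsule replicates 1 and 3, while that of replicate 2 was not. With 1 of these signals not well above background and the others near it, the size of the fold is less certain than its direction on this probe.

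The second Il1rl1 probe, for transcript NM_001127689, did not show this difference. Its unscaled signals were 7.18, 2.26 and 7.40 in diabetic and 5.33, 7.35 and 3.14 in Bailing Capsule kidneys. It was well above background on 1 array of each group, and so was not tested. Its group means, -5.86 ± 0.70 and -5.77 ± 0.43 on the scaled log2 axis (SD, n = 3), overlapped. The gene gives rise to a membrane receptor and a soluble decoy from different transcripts. Which of these each probe reads is not given in the sources used here, so the called difference is one of the transcript or transcripts that the first probe detects.

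**Figure D1:**
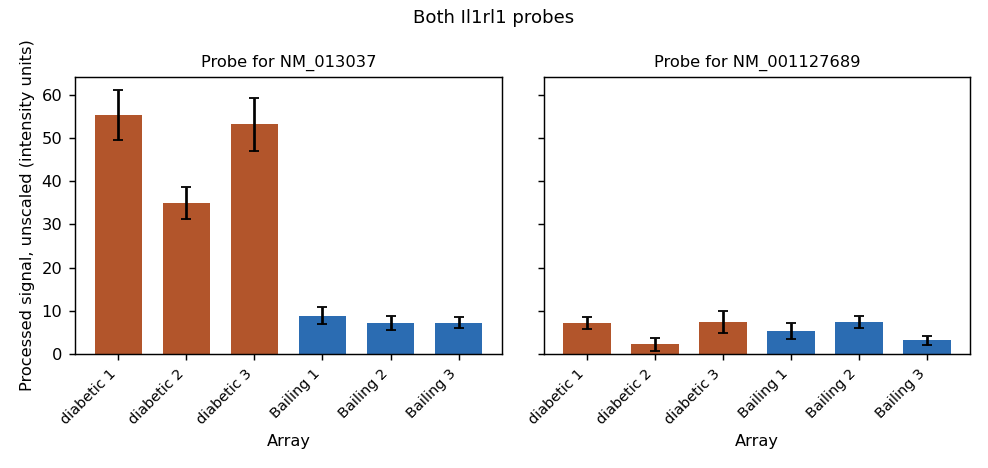
Unscaled processed signal (intensity units) of both Il1rl1 probes on each array, with bars for the 6 samples and error bars for the error given by Feature Extraction for the single spot. On the NM_013037 probe the diabetic kidneys lie between 34.9 and 55.4 and the Bailing Capsule kidneys between 7.16 and 8.84, while signals on the NM_001127689 probe lie between 2.26 and 7.40 in all 6.

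Diabetic replicate 1, which shared its slide with the Bailing Capsule arrays, had the highest Il1rl1 value of all. With slide as a block the difference was -2.83 (SE 0.44, limma, adjusted p = 0.0310), with diabetic replicate 1 as the only diabetic array behind it. Within slide 1 alone the same value follows by construction, and its adjusted p was 0.213. Of the 18 alternatives that gave a value, 13 kept the adjusted p under 0.05. Those that did not included the fit within slide 1 and the one where the background was corrected with normexp before quantile normalization, at -0.62 (adjusted p = 0.181), the one with no filter, at -2.52 (adjusted p = 0.0936), and the one without diabetic replicate 2, at -2.55 (adjusted p = 0.0772). Over all alternatives adjusted p-values ran from 0.00164 to 0.213 and the sign stayed negative. With the filter on all 6 arrays Il1rl1 had no value.

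**Figure D2:**
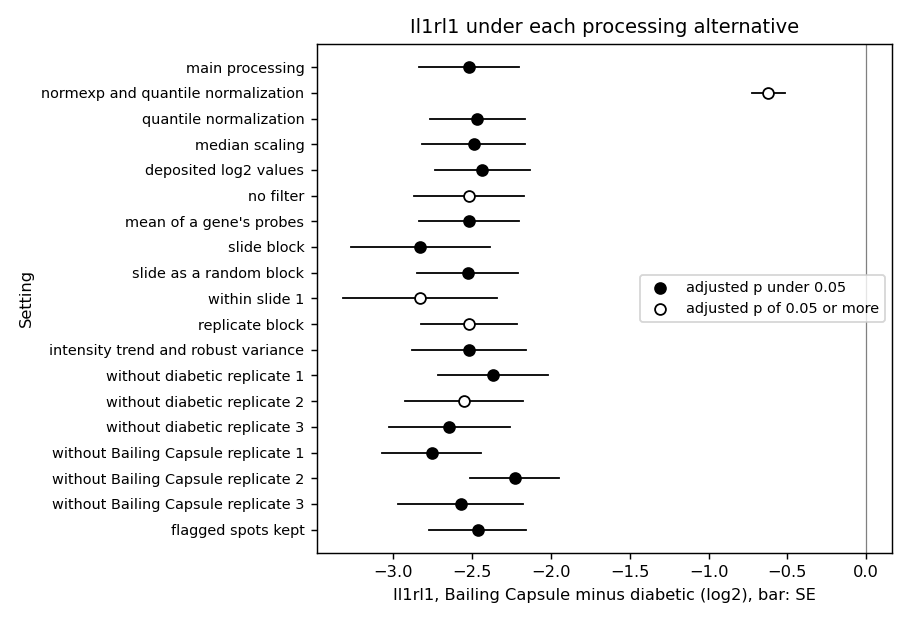
Difference of Il1rl1 on the log2 scale (Bailing Capsule minus diabetic, with SE) under the main processing and each alternative that gave a value; filled points have an adjusted p under 0.05. Values lie between -2.83 and -2.23 except with normexp, which gave -0.62.

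Il33, the ligand of this receptor, was not called. Its log2 levels were 3.16, 3.51 and 3.37 in diabetic kidneys and 3.01 and 3.25 in Bailing Capsule replicates 2 and 3; the spot of replicate 1 carried an outlier flag and was left out. The groups overlapped. The difference of -0.22 (SE 0.28) had a 95% interval of -0.86 to 0.43. With flagged spots kept, Bailing Capsule replicate 1 stood at 2.45 and the difference was -0.35 (limma, adjusted p = 0.818). Il33 was -0.03 with slide as a block and -0.0999 without Bailing Capsule replicate 2.

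The accessory chain Il1rap, shared by the interleukin-33 and interleukin-1 receptors, was too dim to test. Its probe for NM_001167840 was well above background in 2 of 3 kidneys of each group, with scaled log2 values of -6.25, -4.85 and -4.65 in diabetic and -5.16, -4.80 and -5.25 in Bailing Capsule kidneys. The ranges overlapped, and the means differed by 0.18. The probe for NM_012968 was below that limit on every array.

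Of the interleukin-1 ligands, Il1b had the largest difference. The log2 levels of Il1b were -0.39, -0.60 and 0.31 in diabetic kidneys and -0.87, -1.96 and -0.75 in Bailing Capsule kidneys. Every Bailing Capsule value lay below every diabetic one, though the gap between the nearest values was small. The means were -0.23 ± 0.48 and -1.19 ± 0.67 (SD, n = 3), a difference of -0.97 (SE 0.38, 95% interval -1.80 to -0.13) that was not called (limma, adjusted p = 0.540). Il1b was printed at 10 spots per array, and the SD among spots of an array was 0.0495 to 0.12 on the log2 scale, below the SD among samples of either group. Unscaled signals were 208, 147 and 480 in diabetic and 123, 96.3 and 141 in Bailing Capsule kidneys. Without Bailing Capsule replicate 2, the lowest of the 6, the difference was -0.58, and with slide as a block it was -0.80.

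Il1a, which encodes the cell-associated form interleukin-1 alpha, was not called. Its log2 levels were -2.82, -3.97 and -3.91 in diabetic kidneys and -3.73, -3.90 and -4.18 in Bailing Capsule kidneys. Diabetic replicate 1 stood above the other 5, which lay close together. The difference was -0.37 (SE 0.34, 95% interval -1.12 to 0.38), and without diabetic replicate 1 it was 0.0024. With slide as a block, where diabetic replicate 1 is the only diabetic value, it was -1.12 (limma, adjusted p = 0.598). This probe too had 10 spots, varying by 11.9% to 19.9%. Another Il1a probe did not pass the background test on any array.

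Il18, a cytokine that tubular epithelium makes and caspase-1 activates, had the smallest spread of the tested members in diabetic kidneys. Log2 levels were -0.74, -0.78 and -0.73 there and -0.60, -0.92 and -0.51 in Bailing Capsule kidneys, on both sides of the diabetic values. The difference was 0.08 (SE 0.24, 95% interval -0.46 to 0.62). It was the only positive difference among the 7 tested members, and turned to -0.0066 without Bailing Capsule replicate 3.

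Il1r2, the decoy receptor that binds interleukin-1 without signalling, had lower values after Bailing Capsule. They were -5.10, -4.24 and -4.73 in diabetic and -5.25, -5.63 and -5.34 in Bailing Capsule kidneys, so the groups did not overlap. The difference was -0.71 (SE 0.29, 95% interval -1.35 to -0.08) and was not called (limma, adjusted p = 0.566). Its signals, 5.85 to 14.5 units unscaled, were near background, and Bailing Capsule replicate 1 was not well above it. Il1r2 thus passed the filter through the diabetic arrays alone. With slide as a block the difference was -0.31, and with normexp -0.06.

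Il1rn, the secreted antagonist of the interleukin-1 receptor, did not separate the groups. Its log2 levels were -2.26, -1.17 and -1.29 in diabetic and -1.33, -2.29 and -2.39 in Bailing Capsule kidneys. Diabetic replicate 1 was low like Bailing Capsule replicates 2 and 3, and Bailing Capsule replicate 1 was high like diabetic replicates 2 and 3. The difference of -0.43 (SE 0.38, 95% interval -1.28 to 0.41) was 0.25 with slide as a block. It was -0.78 without diabetic replicate 1, -0.77 without Bailing Capsule replicate 1 and -0.23 without diabetic replicate 2, and -0.24 without Bailing Capsule replicate 3.

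Il18bp, the secreted inhibitor of interleukin-18, was not well above background in any diabetic kidney and was so in Bailing Capsule replicates 2 and 3, which left it below the filter. Its scaled log2 values were -5.60, -6.45 and -5.90 in diabetic and -5.17, -4.00 and -4.78 in Bailing Capsule kidneys. Of these, the values of Bailing Capsule replicates 2 and 3 were well above background, and no order is read from the other 4. With no filter the difference was 1.33 (SE 0.38, limma, adjusted p = 0.563), which takes values not well above background as they stand.

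**Figure D3:**
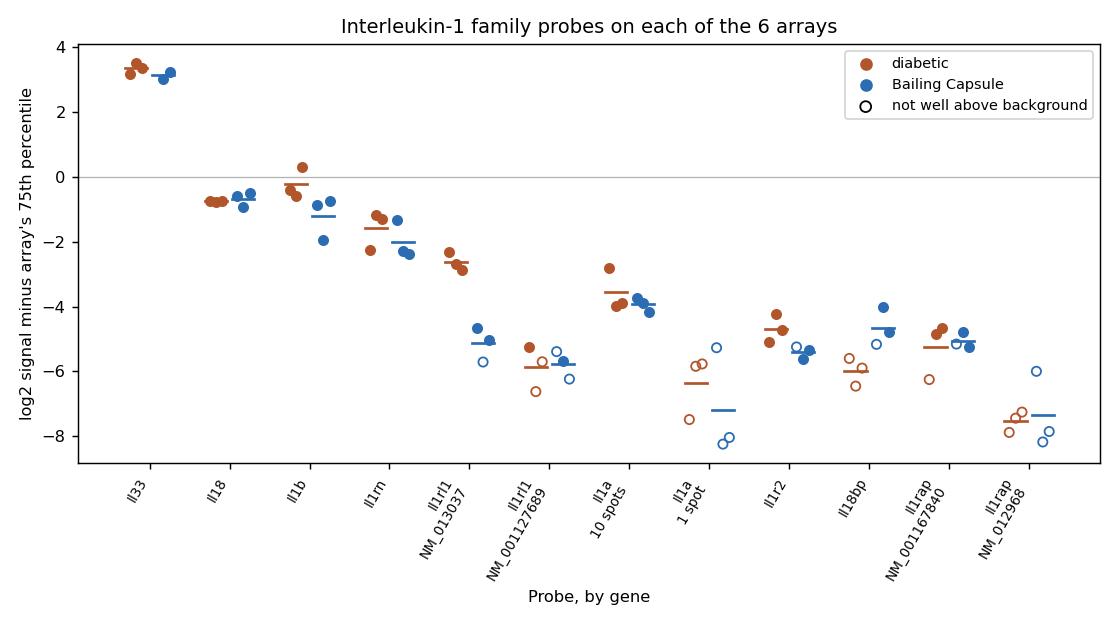
Log2 signal minus the array's 75th percentile for the 12 probes of 9 interleukin-1 family genes, with 1 point per sample, a line at each group mean and open points where a probe was not well above background. The Il1rl1 probe for NM_013037 shows the widest gap between groups among the probes tested, from -2.61 to -5.13 in mean; Il33 lacks Bailing Capsule replicate 1.

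Among the 7 tested members 6 differences were negative, with a median of -0.43. Over all features 62.1% were negative and the median was -0.09, or 0.09 with slide as a block. Il1rl1, Il1b and Il1r2 were lower without overlap of the groups, as were 7.06% of all features, and 0 tested members were higher without overlap, as were 4.58% of all features. Of the lower ones, Il1rl1 and Il1r2 passed the filter through the diabetic arrays alone. The members were chosen on this contrast, so nothing is read from these shares.

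**Figure D4:**
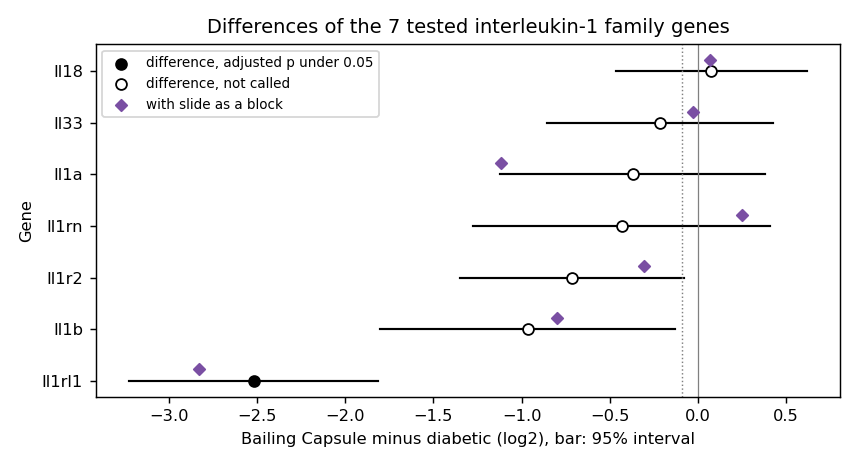
Bailing Capsule minus diabetic difference on the log2 scale for the 7 tested genes, with 95% intervals; diamonds show the difference with slide as a block and the dotted line the median of all features, -0.09. Only Il1rl1, at -2.52, is called, and Il1rn and Il1a move most under the block, to 0.25 and -1.12.

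Il1rl1 lies in a cluster of receptor genes on rat chromosome 9. In the RefSeq order of protein-coding genes Il1r2, Il1r1, Il1rl2, Il1rl1, Il18r1 and Il18rap follow each other, with a histone-like gene between Il1r2 and Il1r1. Of these, Il1r2 had -0.71 and Il1rl1 -2.52, while Il18r1, the interleukin-18 receptor, had 0.22 (SE 0.30, limma, adjusted p = 0.971). Il1rl2, the interleukin-36 receptor, did not pass the filter, and Il1r1 and Il18rap had no named probe.

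The 5 named genes whose pattern over the 6 kidneys was most like that of Il1rl1, out of 4691 with a range of at least 1 log2 unit, were Pipox, Mogat2, Scrg1, Gpr83 and Cidea. Their Pearson correlations with it were 0.983 to 0.995. The differences were -6.19 for Gpr83, -4.48 for Mogat2 and -3.82 for Scrg1. Pipox, a peroxisomal oxidase of sarcosine and pipecolic acid, had a difference of -1.93, and Cidea, a lipid droplet protein, -1.90. All except Cidea (limma, adjusted p = 0.058) were called. Scrg1 and Gpr83 failed the background test in each Bailing Capsule kidney, so they passed the filter through the diabetic arrays alone. The correlations of Scrg1 and Gpr83 thus rest in part on values that did not pass that test. Such a correlation over 6 arrays in 2 groups mostly restates a gap between the groups and is given as a description. Of the members, Il1r2 and Il1b correlated with Il1rl1 at 0.78 each and Il18 at -0.09.

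Around the family, 7 pathway lists held 89 genes, of which 52 were tested, and 0 of them were called at an adjusted p under 0.05. Of all features 0.19% were called lower and 0.129% higher. Without overlap of the groups 7.06% of all features were lower and 4.58% higher, which is the background for each list gene described so below.

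The signalling list, from the adaptor MyD88 to NF-kB and the MAP kinases, had 15 of 20 genes tested, 9 of them negative, with a median of -0.14. Irak2, a kinase of the receptor complex, had the lowest unadjusted p. Its log2 levels were 1.99, 2.25 and 1.78 in diabetic and 1.65, 1.003 and 1.48 in Bailing Capsule kidneys. They did not overlap, and the difference was -0.63 (SE 0.27, limma, adjusted p = 0.630). Irak4, the kinase that starts the cascade, had -0.51, also without overlap, and Irak3, which restrains it, -0.47. Tab1 and Mapk14 (p38) each had -0.23.

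In the inflammasome and processing list 7 of 12 genes were tested, with a median of -0.02, or 0.14 under the slide block. Txnip, a redox protein that binds NLRP3 and rises with glucose, was 5.16, 5.04 and 5.04 in diabetic and 4.53, 3.999 and 4.10 in Bailing Capsule kidneys, a difference of -0.87 (SE 0.25, limma, adjusted p = 0.288). The groups did not overlap, and with slide as a block the difference was -0.96. Casp1, the protease that matures interleukin-1 beta and interleukin-18, had 0.28 (SE 0.23, limma, adjusted p = 0.921), with every Bailing Capsule value above every diabetic one. The adaptor gene Pycard had 0.28, with overlap. The channel gene Panx1 had -0.46 (limma, adjusted p = 0.807), lower without overlap, and the sensor gene Nlrp1a -0.32. With slide as a block these differences were -0.10 and -0.02. Nlrp3 itself and P2rx7 were not well above background on any array.

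Genes that interleukin-1 induces did not shift together: 7 of 11 tested were negative, with a median of -0.10, or 0.11 under the slide block. The neutrophil chemokine gene Cxcl2 had -1.18 and Lcn2 -0.91, each well above background in 1 Bailing Capsule kidney. Both passed the filter through the diabetic arrays alone. Ccl20, a chemokine for lymphocytes and dendritic cells, had 0.78. Cxcl2 and Lcn2 were lower without overlap of the groups, and Ccl20 was higher without overlap. The adjusted p-values in limma were 0.486, 0.363 and 0.546. Il6, Mmp3 and Mmp9 stayed below the background limit on every array.

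Of the type 2 immunity genes that act with or after interleukin-33, 9 of 20 were tested, 5 of them negative, with a median of -0.15. Areg, the epidermal growth factor receptor ligand amphiregulin, which ST2-bearing lymphocytes and epithelium make, had the largest difference. Its log2 levels were -1.10, -0.92 and -1.03 in diabetic and -1.84, -2.60 and -1.999 in Bailing Capsule kidneys. The groups did not overlap, and the difference was -1.13 (SE 0.27, limma, adjusted p = 0.186), or -1.04 with slide as a block. Arg1 had -0.30 and Ccl22 0.24, and Il4 and Il5 did not pass the background test on any array.

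Of the Fos and Jun genes 7 of 9 were tested, with a median of -0.06, or 0.19 under the slide block. Fos had 0.49 (SE 0.30, limma, adjusted p = 0.829), with overlapping groups, and Fosl2 -0.36. The part of Fos in the Il1rl1 difference was not tested. Egr1, an immediate early gene on the same list, had -1.17 (limma, adjusted p = 0.597). Its diabetic replicate 1, at -2.72, lay among the Bailing Capsule values, and with slide as a block the difference was 0.13. Of the remaining ligands and receptors, Il36rn, the interleukin-36 antagonist, had 0.47, with Bailing Capsule values of -3.29, -3.86 and -1.42 against a diabetic mean of -3.32, so that replicate 3 alone stood clearly above it. Sigirr, an inhibitory receptor of the family, had -0.23, or 0.12 with slide as a block. The median of the tested receptors on this list, Sigirr and Il18r1, was -0.0074, or 0.39 with slide as a block. Il36a, Il36b, Il36g and Il1f10 did not pass the background test on any array.

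**Figure D5:**
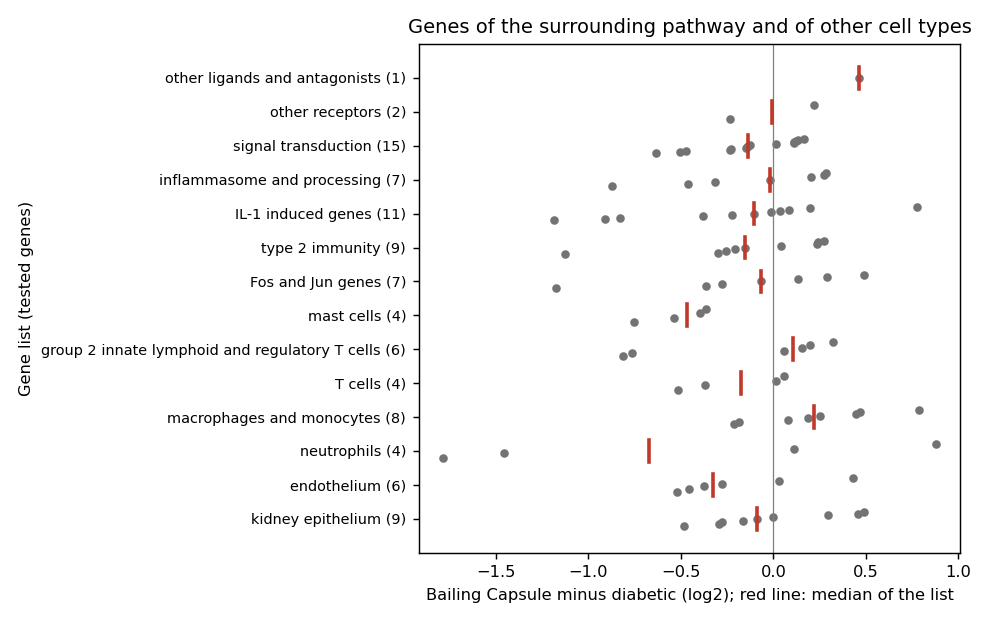
Bailing Capsule minus diabetic differences (log2) of the tested genes in each pathway and cell type list, with the number tested in brackets and a red line at the list's median. No gene shown was called. The lowest values are those of the neutrophil genes S100a8 and S100a9, at -1.78 and -1.46. Both were well above background in only 2 Bailing Capsule kidneys.

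Of the markers of cells that carry ST2, 5 mast cell genes and 2 of the innate lymphoid and regulatory T cell genes were not well above background on any array. The tested ones lay below each array's 75th percentile, and among them Gata2 and Ikzf2 were well above background on all 6 arrays. Of 11 mast cell genes 4 were tested, all negative, with a median of -0.47. Under the slide block it stood at -0.27, and Gata2 and Kit turned positive, at 0.15 and 0.13. Hdc, which makes histamine, had -0.76, the chymase gene Cma1 -0.54 and Gata2 -0.37, and 0 were called. Their summed level, in units of the array's 75th percentile, was 0.412 to 0.633 in diabetic and 0.275 to 0.530 in Bailing Capsule kidneys. Gata2 weighed most in this sum, at log2 means of -1.95 and -2.31 in these groups. Cpa3, Fcer1a and Ms4a2, which define mast cells, were not well above background on any array, nor were Mcpt1 and Tpsab1. Genes of group 2 innate lymphoid and regulatory T cells had a median of 0.11 over 6 of 10 tested, with summed levels of 0.491 to 0.951 and 0.499 to 0.700. Ikzf2 was the brightest of these genes in diabetic kidneys, at a log2 mean of -1.99. Il2ra had -0.76, Ikzf2 -0.81 (0.0944 with slide as a block) and Il7r 0.32, higher without overlap. No eosinophil gene of 6 was tested. The part of these cells in the Il1rl1 difference was not tested.

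Of 8 neutrophil genes 4 were tested, of which 2 were negative, 2 positive and 0 called, with a median of -0.67 and summed levels of 0.275 to 0.359 in diabetic and 0.225 to 0.281 in Bailing Capsule kidneys. S100a8 was -3.88, -2.73 and -2.98 in diabetic and -5.40, -5.14 and -4.41 in Bailing Capsule kidneys, a difference of -1.78 (SE 0.37, limma, adjusted p = 0.110). Its partner S100a9 had -1.46 (limma, adjusted p = 0.129), and neither overlapped between groups. Both were well above background in only 2 Bailing Capsule kidneys and passed the filter through the diabetic arrays alone. With slide as a block they had -1.10 and -0.94 (limma, adjusted p = 0.837 and 0.939). Fcgr3a had 0.88 and Csf3r 0.11, and Camp was not well above background on any array. Macrophage and monocyte genes had a median of 0.22 over 8 of 11 tested. The complement gene C1qa led them at 0.79 (limma, adjusted p = 0.620), higher without overlap. Their summed levels were 49.9 to 61.5 in diabetic and 44.9 to 82.1 in Bailing Capsule kidneys. Most of this sum was Lyz2, at log2 means of 5.69 and 5.77 in these groups, a difference of 0.08. T cell genes had a median of -0.18 over 4 of 9 tested, or 0.37 under the slide block. Endothelial genes had -0.33 over 6 of 9, or 0.24 with slide as a block. The part of these cells in the Il1b and Il1r2 values was not tested.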

How the data were processed

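Per the file headers, the scanned images were extracted with Agilent Feature Extraction 11.0.1.1. Its processed intensity has the background subtracted and is detrended, with no scaling between arrays. The authors' deposited table holds log2 intensities with near-equal column distributions (medians of 5.048, correlating at 0.983 to 0.994 with the scanner values); its normalization is not given in the sources used here. It served as an alternative.

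Outlier-flagged spots (597 to 1091 of 42877 per array) were left out, log2 signals of a probe's spots averaged, and each array's 75th percentile subtracted. A probe was kept if at least 50% of its spots were well above background on all 3 arrays of a group; the brightest kept probe stood for a gene. Accessions were matched to RefSeq (GRCr8), naming 18005 of 30367 probes. The comparison used lmFit and eBayes of limma 3.58.1 (R 4.3.3), with Benjamini-Hochberg adjustment over 17892 features, and the script was tested on simulated data. The number of arrays limits precision.

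Same-numbered samples correlated at -0.181, -0.14 and 0.0194 after group means were removed, so numbers were not taken as pairs. Named genes were all members, the 5 most like Il1rl1, and up to 3 genes per list by p (5 for signalling and inflammasome). Kit, Csf3r, Lyz2, genes named only as dim, and the kidney markers were named outside this rule, after their values were seen. Members and lists were chosen with earlier results of these data known.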

Additional observations from a re-analysis of the deposited data

Results flagged for a closer look

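Il18bp had signal outside the tested features: its probe did not pass the filter, yet it was well above background in 2 Bailing Capsule kidneys and in 0 of the 3 diabetic kidneys. The Bailing Capsule mean was 1.33 higher on the log2 scale. This size rests in part on 4 values not well above background and is not taken as a measured difference. Unscaled signals were 5.64, 2.54 and 6.47 in diabetic and 6.22, 23.3 and 8.62 in Bailing Capsule kidneys, before scaling for the brightness of each array. No test within the main processing covers it.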

How the results depend on the processing

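The number of called features was 57 (23 higher, 34 lower), against 45 (25 higher, 20 lower) in the deposited values, 47 (23 and 24) after quantile normalization and 39 (28 and 11) with slide as a block. It was 6 with no filter, 12 with normexp followed by quantile normalization, 9 within slide 1, 6 with the replicate block, and ran from 17 to 195 over the fits that each left out 1 array. With normexp, with no filter, within slide 1, with the replicate block and with the filter on all 6 arrays, 0 of the members were called, and 0 to 1 when 1 array was left out. The normexp setting started from median spot and background signals and added an offset of 50. What each of these steps did was not tested. Il1rl1 was -0.62 there. It was -2.52 with no filter (26825 features tested) and with the replicate block (limma, adjusted p = 0.101), -2.83 within slide 1, where 1 diabetic array remains, and -2.75 to -2.23 when 1 array was left out. Without diabetic replicate 2 its call was lost, and the cause was not tested. The filter on all 6 arrays gave it no value. Uncalled members turned sign as follows: Il33 was 0.0096 with normexp, and Il1rn 0.25 with slide as a block and within slide 1. Il1a ran from -0.57 to 0.0024 and Il18 from -0.0066 to 0.20 when 1 array was left out, and the cause was not tested. Keeping flagged spots was an alternative chosen after seeing the data. Signals near background limit Il1r2, Il1rap, Il18bp and the lower Il1rl1 values.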
